A study of Homo sapiens with 15 samples.

Results

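The 41 genes described here encode the machinery that copies DNA: origin licensing and helicase factors, replicative polymerases and primase, the sliding clamp and its loader, RPA, the enzymes that mature Okazaki fragments, and the enzymes that supply deoxynucleotides, together with UHRF1. They were taken by symbol from a count table of 19612 genes, and all 41 were found. The libraries came from H1975, a human lung adenocarcinoma cell line whose EGFR carries the L858R and T790M changes, and from H1975–OR, a derivative selected for resistance to the EGFR inhibitor osimertinib and carried in 500 nM of it. H1975–OR is 1 derived line, so whatever else arose during its selection is shared by all of its libraries. RNA was sequenced from 5 groups of 3 libraries each after 96 h: H1975 with vehicle (Samples 1a to 1c), H1975–OR with vehicle (2a to 2c), with 100 nM 1,25(OH)2D3, the hormonal form of vitamin D (3a to 3c), with 500 nM osimertinib (4a to 4c), or with both agents (5a to 5c). All of these cells were in medium with charcoal-stripped serum. For H1975–OR, vehicle therefore meant 96 h without the drug the line was kept in, and no H1975 library received either agent. The letters a to c mark the 3 libraries of a group. The authors took RNA from 3 separate passages, but no label ties a letter to a passage.

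Replication starts in G1, when ORC, CDC6 and CDT1 load the MCM2 to MCM7 hexamer onto origins. At the start of S phase CDC45 and the GINS complex join the hexamer, with the help of MCM10, and turn it into the active helicase. Primase with polymerase alpha begins each new strand, polymerases epsilon and delta extend it on the PCNA ring that the RFC complex loads, RPA covers single-stranded DNA, and FEN1 and LIG1 process and join the lagging strand. Ribonucleotide reductase (RRM1 with RRM2), thymidylate synthase (TYMS) and thymidine kinase (TK1) feed the reaction, and UHRF1 recruits DNMT1 to copy DNA methylation. Many of these genes are classical targets of E2F factors and are transcribed mainly in cycling cells.

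The promoters of several members are shown because they carry the sequence words that E2F factors are known to bind. RefSeq windows on GRCh38.p14, from 250 bases before to 50 bases after a gene start, were held for 35 of the 41 members. The entries for MCM4, MCM5, GINS4, POLD3, RPA2 and RPA3 are not in the table used. The words searched on either strand were TTTCGCGC, TTTGGCGC, TTTCCCGC and TTTGCCGC, and some of them overlap each other, as in MCM6. Each stretch below is written 5′ to 3′ along its gene's strand and ends before the start of transcription, with the words in capitals.
MCM6: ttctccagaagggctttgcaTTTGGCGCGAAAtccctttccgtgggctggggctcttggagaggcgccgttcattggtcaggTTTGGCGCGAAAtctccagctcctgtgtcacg
PCNA: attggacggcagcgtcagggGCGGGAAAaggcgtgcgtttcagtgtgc
CDT1: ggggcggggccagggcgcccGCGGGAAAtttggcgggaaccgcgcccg
GINS2: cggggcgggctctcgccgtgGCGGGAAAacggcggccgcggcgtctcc
UHRF1: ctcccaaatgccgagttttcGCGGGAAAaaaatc
POLA1: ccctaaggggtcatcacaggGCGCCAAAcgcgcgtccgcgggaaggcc
These lie at chr2:135876502-135876615 (minus strand), chr20:5126654-5126701 (minus), chr16:88803734-88803781 (plus), chr16:85688958-85689005 (minus), chr19:4909467-4909500 (plus) and chrX:24693761-24693808 (plus), in the order given. In MCM6 a pair of overlapping words began 152 and 148 bases before the start, and a further pair 90 and 86 bases before it. In total 18 of the 35 members (51.4%) had at least 1 of the words in a window, against 645 of the 9717 tested genes that had a window (6.64%) and 3.31% of all 35116 windows. The word CCAAT, which NF-Y binds, was in a window of 22 of the 35 (62.9%), against 43.0% of the tested genes and 34.6% of all windows. The CHR word TTTGAA, a G2 and M phase element, was in a window of 1 member (RRM1), against 13.8% of the tested genes and 15.2% of all windows. A match is a description of letters, and factor binding was not measured.

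Between 4378030 and 6140120 counts were assigned to genes in a library (median 4974785). Sample 3a, which the authors left out as atypical, differed from the other libraries of its group more than they did from each other, and no test below includes it unless that is said. The cells carried the epithelial keratins, VIM and NKX2-1 in every library, while CD3E was at 0 and the 4 leukocyte markers summed to at most 39.9 CPM (counts scaled to library size). EPCAM stood at 75.01 to 207.2 CPM in H1975 and at 12.7 CPM or less in H1975–OR. Mean CDH1 was 243.4 CPM in H1975 and 6.94 CPM in vehicle-treated H1975–OR. Of the mesenchymal markers besides VIM, CDH2 did not exceed 2.12 CPM in any library. Between the same groups mean FN1 went from 712.2 to 56.2 CPM and mean ZEB1 from 3.73 to 30.7 CPM. The fibroblast marker PDGFRB went from 3.34 to 21.0 CPM and LUM from 0 to 2.39 CPM, while DCN and PDGFRA did not exceed 3.02 CPM. The lung markers NAPSA and SFTPB were near 0 and SFTA2 was at 0. CYP24A1, which 1,25(OH)2D3 induces, stood between 676.5 and 1470 CPM in the 6 libraries given the hormone and at 25.6 CPM or less in the other 9. CPM is a count divided by the library's total and multiplied by 1000000, scaled by TMM factors over all 15 libraries. It is not divided by gene length, so levels are compared between libraries and not between genes.

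The members together took 0.388% to 0.402% of all counts in the 3 H1975 libraries. In vehicle-treated H1975–OR they took 0.199%, 0.138% and 0.156%. The shares were 0.167% (Sample 3a), 0.128% and 0.130% with 1,25(OH)2D3, 0.217%, 0.159% and 0.174% with osimertinib, and 0.188%, 0.141% and 0.160% with both agents. No H1975–OR share reached the lowest H1975 share. Within each H1975–OR group the letter a library had the highest share and the letter b library the lowest. Per member, the group mean in vehicle-treated H1975–OR was at a median of 43.97% of the H1975 mean. It was at 30.9% with 1,25(OH)2D3 (Samples 3b and 3c), 50% with osimertinib and 43.8% with both agents. These medians take in the members, described below, whose libraries disagreed within a group. The 50% is the value of RRM1, which is one of them. By these medians H1975 was the highest group and 1,25(OH)2D3 the lowest, but the hormone mean alone lacked a letter a library. Sample 3a, left out of it, had a share above those of Samples 2b and 2c. No member passed the test between vehicle-treated H1975–OR and either agent alone, or between both agents and osimertinib.

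**Figure D1:**
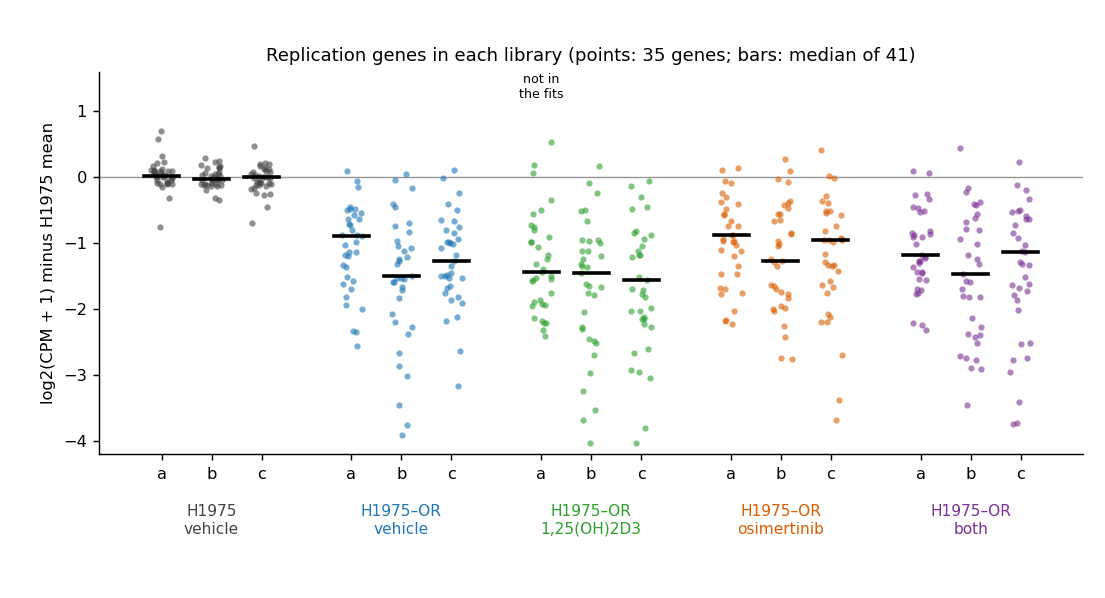
Each point is 1 of the 35 replication genes that did not meet the 10-fold rule given in the text. Its height is log2(CPM + 1) in a library minus that gene's mean over the 3 H1975 libraries. Each bar is the median of all 41. The medians of the H1975–OR libraries lie between −0.87 and −1.55, with letter a above letter b in every H1975–OR group.

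The first comparison asked how vehicle-treated H1975–OR differed from vehicle-treated H1975. Of the 41 members, 27 (65.9%) were lower in H1975–OR and 0 higher at an adjusted p under 0.05 by the quasi-likelihood test of edgeR, adjusted by Benjamini-Hochberg over 12513 genes. Over all genes tested, 10.3% were called lower. The 27 covered every role, from licensing to nucleotide supply. The median log2 fold change of the 41 was −1.17, against 0.01 for all genes, and 38 were lower and 3 higher in sign. The libraries of the 2 lines did not overlap in the lower direction for 33 members (80.5%), against 20.3% of all genes. The 4 proliferation markers MKI67, TOP2A, CCNB1 and CDK1 moved with the members: all 4 passed the test as lower, and their sum was 1500 to 1751 CPM in H1975 and 366.1 to 715.5 CPM in vehicle-treated H1975–OR. In bulk RNA, fewer cells in S phase and less RNA per cell cannot be told apart.

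**Figure D2:**
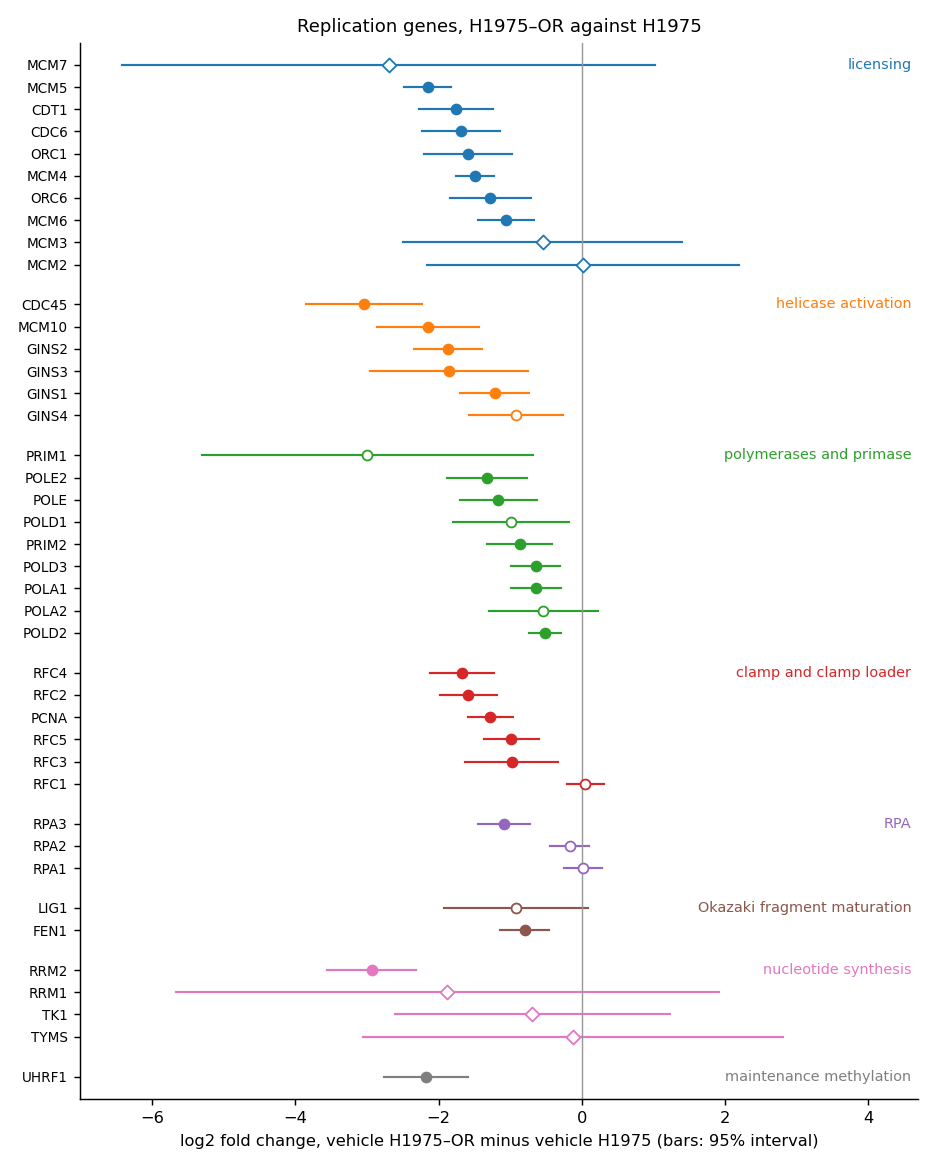
Log2 fold change of each of the 41 genes between vehicle-treated H1975–OR and H1975, grouped by role, with bars for the 95% interval. Filled symbols passed the adjusted threshold (27 genes, all lower) and open symbols did not. Diamonds mark the 6 genes that met the 10-fold rule given in the text. RFC1, RPA1 and MCM2 sit at 0, with a wide interval for MCM2 alone.

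Helicase activation had the deepest median fall of the role groups with more than 1 member, at −1.86, with 5 of 6 members called. CDC45, the helicase subunit that joins MCM at firing (chromosome 22, 19479457 to 19520612, plus strand, GRCh38), stood at 69.8, 61.1 and 80.2 CPM in Samples 1a to 1c. It stood at 11.1, 3.72 and 10.4 CPM in Samples 2a to 2c. All 3 values were far below the lowest H1975 library. Its log2 fold change was −3.05 ± 0.36 (SE), a level of 12.1% of that in H1975, with an adjusted p of 0.0012 by edgeR. MCM10 fell from 65.4 ± 4.49 to 14.6 ± 6.37 CPM (SD, n = 3 each), by 2.15 on the log2 scale, with an adjusted p of 0.00301. GINS2 fell from 68.9 ± 6.14 to 18.7 ± 4.53 CPM (SD, n = 3 each), by 1.87. Of the other GINS subunits, GINS1 (−1.22) and GINS3 (−1.85) passed the test. GINS4 did not, at −0.92 with an adjusted p of 0.0554, although its 3 H1975–OR libraries (20.3, 17.0 and 19.1 CPM) lay below the 3 of H1975 (51.6, 31.0 and 24.6 CPM).

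Among the 10 licensing genes 7 were called lower, with a median of −1.54. MCM5, a subunit of the hexamer (chromosome 22, 35400134 to 35425431, plus strand), had the smallest adjusted p of all members, 0.000151. It stood at 147.8, 163.2 and 163.4 CPM in H1975 and at 40.7, 29.6 and 35.5 CPM in vehicle-treated H1975–OR, a fall of 2.15 ± 0.14 (SE) on the log2 scale. MCM4, another subunit of the hexamer, went from 265.6 ± 7.26 to 93.7 ± 9.55 CPM (SD, n = 3 each), or 35.7% of the H1975 level. MCM6 fell by 1.06. The loading factors CDT1 (−1.76) and CDC6 (−1.69) and the origin subunits ORC1 (−1.59) and ORC6 (−1.27) also fell. CDC6, for example, stood at 112.9 to 123.7 CPM in H1975 and at 24.8 to 51.4 CPM in vehicle-treated H1975–OR.

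The polymerase and primase genes had a shallower median, −0.87, with 6 of 9 called lower. POLD2, an accessory subunit of polymerase delta, stood at 259.0, 255.8 and 228.6 CPM in H1975 and at 158.6, 180.6 and 175.5 CPM in vehicle-treated H1975–OR, a change of −0.52 ± 0.10 (SE) with an adjusted p of 0.00904. POLE, the catalytic subunit of polymerase epsilon, and its partner POLE2 fell by 1.17 and 1.32. POLA1, the catalytic subunit of polymerase alpha, fell by 0.64, POLD3 by 0.65 and PRIM2 by 0.87. POLA2, POLD1 and PRIM1 did not pass the test, at −0.54, −0.99 and −2.99. PRIM1, the primase catalytic subunit, stood at 25.6, 15.1 and 9.16 CPM in H1975 and at 2.25, 0.21 and 3.66 CPM in vehicle-treated H1975–OR, so its groups did not overlap but its spread was wide. PRIM1 shares exon sequence on the same strand with NACA in GENCODE 44.

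The clamp and 4 of the 5 loader subunits fell, and the large loader subunit did not. PCNA (chromosome 20, 5114953 to 5126626, minus strand) stood at 392.9, 379.4 and 356.2 CPM in H1975 and at 183.3, 128.4 and 148.1 CPM in vehicle-treated H1975–OR. Its log2 fold change was −1.28 ± 0.14 (SE), with an adjusted p of 0.000857. RFC4 (−1.67), RFC2 (−1.58), RFC5 (−0.98) and RFC3 (−0.98) passed the test as lower. RFC1 stood at 137.4, 154.1 and 120.5 CPM in H1975 and at 145.7, 141.3 and 135.5 CPM in vehicle-treated H1975–OR, a change of 0.05 with a 95% interval of −0.21 to 0.31. The counts of RFC2 to RFC5 summed, divided by those of RFC1 in the same library, were 1.63 to 1.99 in H1975 and 0.583 to 0.736 in vehicle-treated H1975–OR. This ratio does not depend on scaling between libraries. It was formed after the values were seen and is given without a test.

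RPA showed the same kind of split. RPA3, the smallest subunit, stood at 100.3, 122.0 and 110.5 CPM in H1975 and at 60.0, 47.6 and 48.2 CPM in vehicle-treated H1975–OR, a fall of 1.08 with an adjusted p of 0.00319. RPA1, the large DNA-binding subunit, stood at 121.3, 105.7 and 115.0 CPM in H1975 and at 109.7, 110.4 and 122.4 CPM in vehicle-treated H1975–OR. Its change was 0.02 with a 95% interval of −0.25 to 0.28, and that of RPA2 was −0.17 with an adjusted p of 0.357. The ratio of RPA3 to RPA1 counts within a library was 0.827 to 1.15 in H1975, 0.394 to 0.547 in vehicle-treated H1975–OR, and at most 0.55 in all 12 H1975–OR libraries. This ratio too was formed after the values were seen and has no test. The fitted changes of RFC1 and RPA1 lie too close to 0 to carry a sign: that of RPA1 is below 0 with RLE size factors.

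RRM2, the regulatory subunit of ribonucleotide reductase (chromosome 2, 10120698 to 10211725, plus strand), was the most reduced of the nucleotide genes. It stood at 269.4, 278.6 and 310.2 CPM in H1975 and at 55.2, 25.2 and 30.9 CPM in vehicle-treated H1975–OR. The log2 fold change was −2.93 ± 0.27 (SE), a level of 13.1%, with an adjusted p of 0.00048. UHRF1 went from 217.9, 207.7 and 213.3 CPM to 64.9, 28.5 and 46.1 CPM, a fall of 2.18 with an adjusted p of 0.00124. FEN1, the flap endonuclease, fell by 0.80 from 155.3 ± 16.6 to 88.3 ± 14.6 CPM (SD, n = 3 each). FEN1 shares exon sequence on the same strand with FADS2, so some of its counts could belong to that gene. LIG1, the DNA ligase of the lagging strand, changed by −0.91 with an adjusted p of 0.179.

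**Figure D3:**
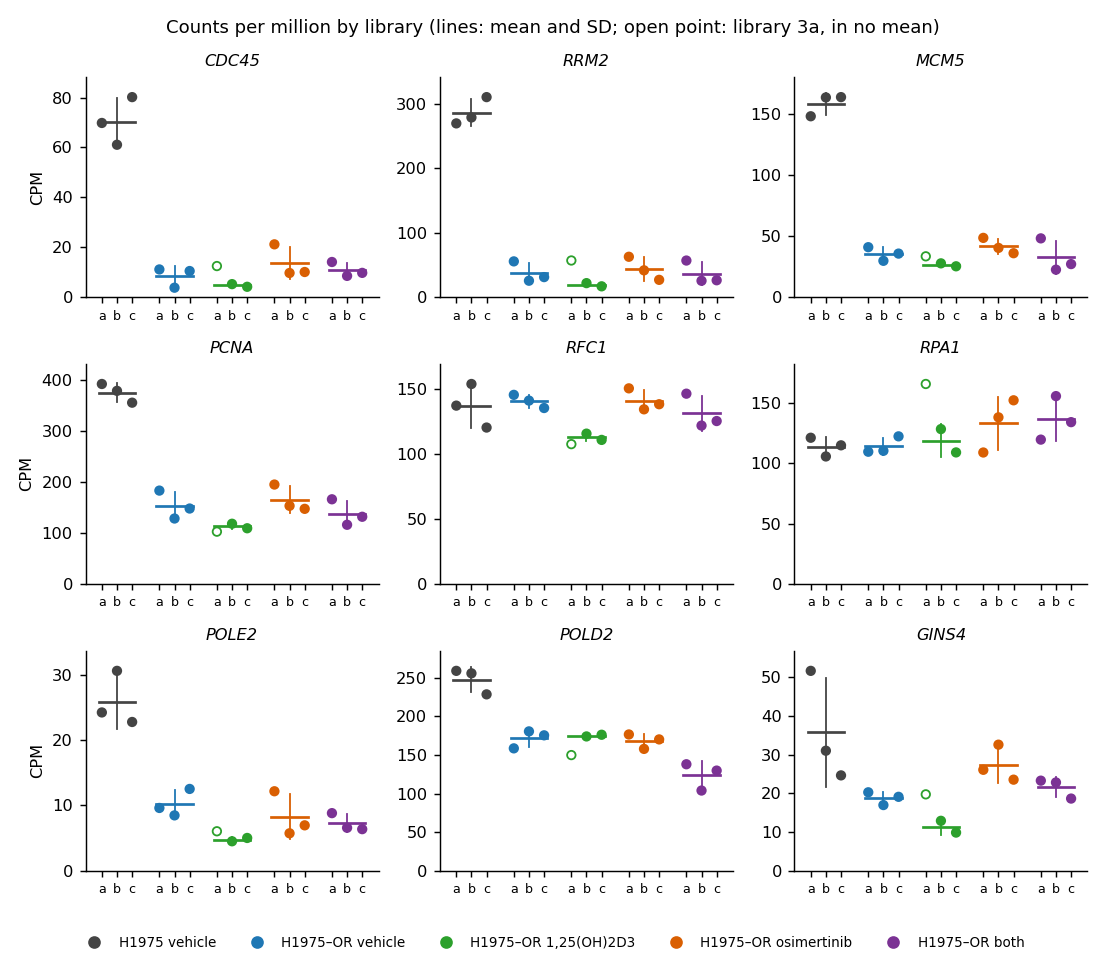
CPM of 9 replication genes in each library, with the mean and SD of each group as lines; Sample 3a is the open point and enters no mean. CDC45, RRM2, MCM5 and PCNA are lower in every H1975–OR library than in every H1975 library, RFC1 and RPA1 overlap, and POLD2 is lowest in the group given both agents.

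Of the 27 called members, 21 passed under every alternative processing tried and 6 did not under at least 1. These were GINS3, POLA1, PRIM2, POLD3, POLE and RFC3, with adjusted p values of up to 0.119. By E2F word, 12 of the 18 members with a word and 11 of the 17 without one were called lower. The median log2 fold changes were −1.19 and −1.28. MCM2, MCM3, MCM7 and TYMS were among the 18, and RRM1 and TK1 among the 17. All of these were uncalled, with libraries that disagreed within a group, as described next. Members without a window are in neither count, so no conclusion about the words is drawn.

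For 6 members the libraries of a single group disagreed so much that a mean would mislead. They were picked after their values were seen, as genes with 1 library of a group at 10 CPM or more and another over 10-fold below it. Sample 3a was counted in this rule, and TYMS met it through that library alone. Genes at lower CPM could differ as much without meeting it. PRIM1, for example, stood at 2.25, 0.21 and 3.66 CPM in Samples 2a to 2c. Of all 12513 genes tested, 4.27% met this rule, against 14.6% of the members. RRM1, the large subunit of ribonucleotide reductase, stood at 192.5, 165.4 and 174.0 CPM in Samples 1a to 1c. It stood at 143.4 CPM in Sample 2a but was listed at 0 in Samples 2b and 2c. It was also listed at 0 in Samples 3b and 4b, beside 80.3 CPM in 3c and 160.8 CPM in 4a, and stood at 175.9, 52.0 and 137.8 CPM in Samples 5a to 5c. Its fitted change of −1.88 had an interval of −5.67 to 1.91. MCM7 was listed at 0 in Sample 1a, beside 112.3 and 131.1 CPM in 1b and 1c, and at 0 or up to 30.5 CPM in H1975–OR. MCM3 stood at 79.7, 8.75 and 19.9 CPM in H1975, and at 63.0, 0 and 51.3 CPM with osimertinib. MCM2 ranged from 1.02 to 27.5 CPM with no order by group, TK1 from 0.39 to 26.6 CPM, and TYMS did not exceed 10.2 CPM, the value of Sample 3a, in any library.

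The cause of these values was not tested. No group mean in CPM is given for these genes, but the medians over all 41 members include them. Other loci lie on the exons of some of these genes in GENCODE 44: the antisense RRM1-AS1 at RRM1, AP4M1 on the opposite strand at MCM7, and ENOSF1 and TYMSOS on the opposite strand at TYMS. Such overlaps were common: 16 of the 41 members had one on the opposite strand and 6 on the same strand. MCM3 and TK1 had neither. None of the 6 genes with disagreeing libraries was among the 27, while RRM1 was among the 33 members whose libraries did not overlap. Over the other 35 members 33 were lower and 2 higher in sign, with a median of −1.22.

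**Figure D4:**
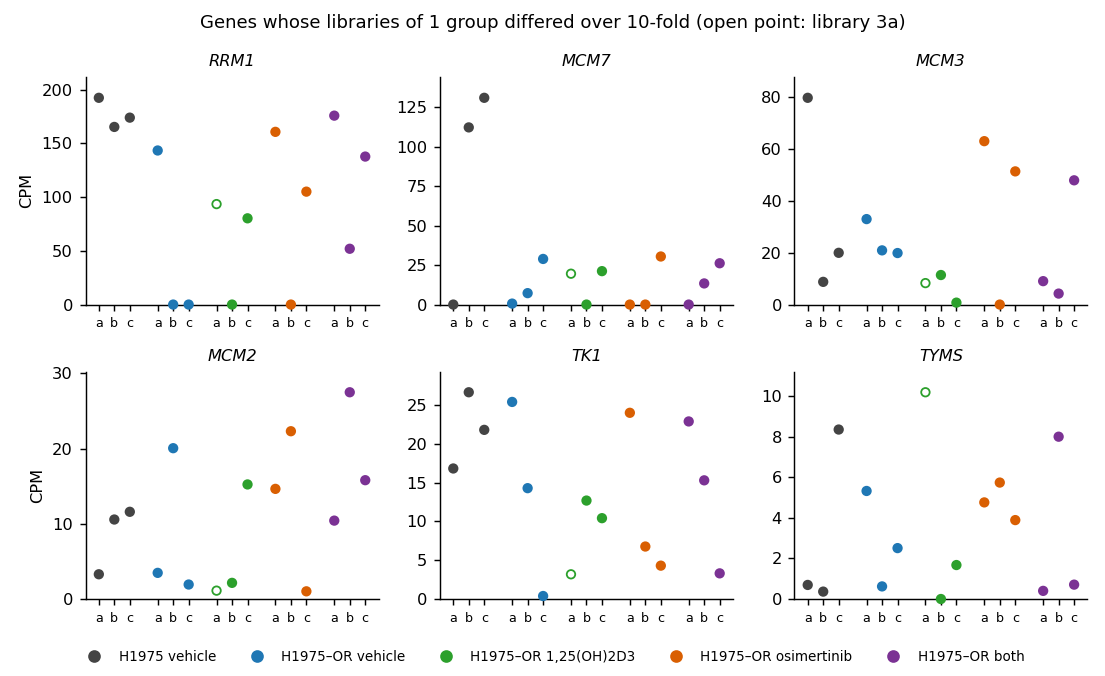
CPM, in each library, of the 6 genes that met the 10-fold rule given in the text. Sample 3a is the open point. RRM1 is either at 0 or above 50 CPM in every library.

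Replication genes outside the 41 were taken from a second list of 40, of which 39 could be tested. Of these, 17 (43.6%) were lower in vehicle-treated H1975–OR and 0 higher at an adjusted p under 0.05, against 10.3% of all genes lower. Their median log2 fold change was −0.66. TIMELESS, a fork protection factor, fell by 1.78, the checkpoint adaptor CLSPN by 1.64 and the CAF-1 subunit CHAF1A by 0.97. The histone chaperone ASF1B fell by 1.67, whereas its paralog ASF1A changed by 0.47 with an adjusted p of 0.0629. The origin subunits ORC2, ORC3 and ORC4 lay between −0.22 and 0.28 and did not pass the test. DNMT1 had an adjusted p of 0.873, and its H1975 libraries disagreed, at 161.1, 144.6 and 24.02 CPM in Samples 1a to 1c, against 140.6, 107.96 and 113.95 CPM in Samples 2a to 2c. Samples 1a and 1b lay above and Sample 1c below all 3 of the latter. RRM2B, the p53-regulated reductase subunit, changed by 0.38 with an adjusted p of 0.0805. TICRR, an origin firing factor, had 0 counts in all 3 H1975 libraries and 49, 21 and 0 in Samples 2a to 2c. CDC7 was too low to test.

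The next comparison asked what 1,25(OH)2D3 alone did in H1975–OR. No member was called in either direction, against 0.152% of all genes, and DESeq2 also called 0. In sign 34 members were lower and 7 higher, with a median log2 fold change of −0.31 against −0.01 for all genes. At an unadjusted p under 0.05 by edgeR, 12 members (29.3%) were lower and 0 higher, against 3.63% of all genes lower. Samples 3b and 3c lay below all 3 vehicle libraries for 16 members (39.0%), against 12.3% of all genes. For 18 of the 35 members that did not meet the 10-fold rule the 95% interval of the change lay within −1 and 1.

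The smallest unadjusted p belonged to POLE2, the second subunit of polymerase epsilon. It stood at 9.62, 8.48 and 12.5 CPM with vehicle and at 4.51 and 5.02 CPM in Samples 3b and 3c. The log2 fold change was −1.09 ± 0.29 (SE), with an adjusted p of 0.425 and between 0.217 and 1 over the alternatives. Sample 3a, which had no part in this fit, stood at 6.04 CPM, below all 3 vehicle libraries too. POLE2 and MCM3 are in a cell cycle list that the study drew from these same libraries, so their direction is not independent of it.

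GINS2 stood at 21.7, 13.4 and 20.8 CPM with vehicle and at 11.8 and 10.0 CPM in Samples 3b and 3c, a change of −0.77, and at 14.95 CPM in Sample 3a. UHRF1 stood at 64.9, 28.5 and 46.1 CPM with vehicle and at 21.7 and 26.6 CPM in Samples 3b and 3c, a change of −0.94, but at 73.5 CPM in Sample 3a. MCM4 stood at 102.5, 83.6 and 95.1 CPM with vehicle and at 76.5 and 64.3 CPM in Samples 3b and 3c, a change of −0.41, and at 97.4 CPM in Sample 3a. The adjusted p of these 3 genes was 0.497 to 0.499. Sample 3a was thus inside the vehicle range for GINS2 and MCM4 and above it for UHRF1.

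The library letters bear on this comparison. Without Sample 3a the hormone group had no letter a library, while the vehicle group kept Sample 2a, the one with the most replication RNA. When each hormone library was set against its same-letter vehicle library, the 41 members had median log2 differences of −0.33 (letter a), −0.12 (letter b) and −0.39 (letter c). Lower members numbered 29, 26 and 31 of 41. For the 12 members with an unadjusted p under 0.05, Sample 3a was below Sample 2a for 8 and below all 3 vehicle libraries for 3. The median over the members was −0.22 with Sample 3a kept in and −0.28 without Sample 2a.

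**Figure D5:**
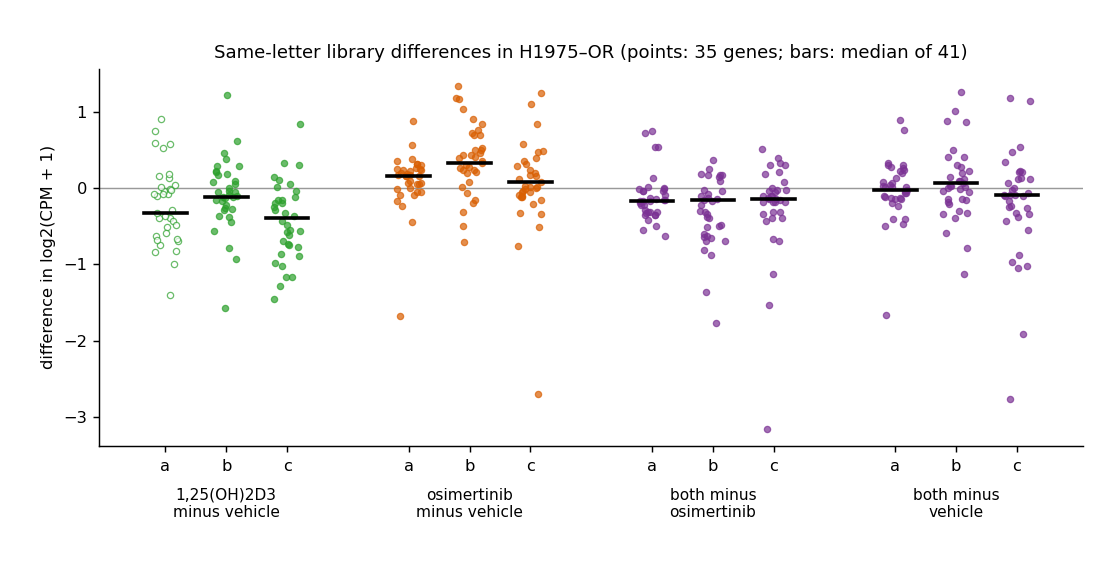
Difference in log2(CPM + 1) between H1975–OR libraries of the same letter. Points are the 35 replication genes that did not meet the 10-fold rule, and bars are the median of all 41. Open points are Sample 3a. The medians are below 0 for 1,25(OH)2D3 minus vehicle and for both agents minus osimertinib in all 3 letters, and above 0 for osimertinib minus vehicle in all 3.

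Osimertinib alone, the condition in which H1975–OR was maintained, was compared with vehicle next. No member was called by edgeR or by DESeq2, against 0.048% of all genes called by edgeR. In sign 33 were higher and 8 lower than with vehicle, with a median of 0.23. Higher members with an unadjusted p under 0.05 numbered 2 (4.88%), against 3.62% of all genes, and 3 members (7.32%) were higher in all osimertinib libraries than in all vehicle libraries, against 5.96%. These shares were close to the background. Within letters the median difference was 0.16, 0.32 and 0.07, with 28, 31 and 24 members higher.

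GINS4 had the smallest unadjusted p, at 26.1, 32.6 and 23.5 CPM with osimertinib and 20.3, 17.0 and 19.1 CPM with vehicle, a change of 0.55 ± 0.20 (SE) with an adjusted p of 0.557. POLE changed by 0.60 with overlapping groups (40.3, 36.2 and 30.1 against 32.3, 22.1 and 16.4 CPM), and POLA1 by 0.35. LIG1 went the other way, at 4.57, 6.35 and 1.02 CPM against 16.8, 10.96 and 12.2 CPM with vehicle, a change of −1.73 with an adjusted p of 0.67. LIG1 was the sole member whose osimertinib libraries all lay below the vehicle libraries.

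Both agents were compared with osimertinib alone and with vehicle; these comparisons share libraries with those above. Against osimertinib 30 members were lower and 11 higher, with a median of −0.20, and 0 were called by edgeR (0.096% of all genes) or DESeq2. With an unadjusted p under 0.05, 1 member (2.44%) was lower. Members lower without overlap numbered 2 (4.88%), against 4.11% of all genes. Within letters the median difference was −0.17, −0.16 and −0.14, with 32, 27 and 31 members lower. Against vehicle 21 were higher and 20 lower, with a median of 0.01, and 0 were called by edgeR against 0.496% of all genes. At an unadjusted p under 0.05, 1 (2.44%) was lower and 1 (2.44%) higher. No share over all genes is given for the unadjusted counts of this paragraph, so they are not read as results about the members. DESeq2 called 1 member, POLD2, and 2.91% of all genes, so this count was no higher than the background.

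POLD2 had the smallest unadjusted p of all members in both comparisons. It stood at 138.0, 103.9 and 129.8 CPM with both agents, at 176.6, 157.9 and 170.2 CPM with osimertinib, and at 158.6, 180.6 and 175.5 CPM with vehicle. All 3 combination libraries were below every library of the other 2 groups, and Samples 3b and 3c, at 174.0 and 176.2 CPM, were within the vehicle range. Sample 3a, at 149.8 CPM, was below it. Against vehicle the change was −0.47 ± 0.12 (SE) with an adjusted p of 0.163 by edgeR, between 0.0212 (DESeq2) and 0.461 over the alternatives. Against osimertinib it was −0.45 ± 0.12 (SE) with an adjusted p of 0.621. POLE was higher with both agents (39.1, 41.4 and 37.3 CPM) than with vehicle (32.3, 22.1 and 16.4 CPM), by 0.73 with an adjusted p of 0.24. LIG1 stood at 4.61, 8.46 and 0.94 CPM with both agents, and its adjusted p against vehicle was 0.477.

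An interaction term asked whether 1,25(OH)2D3 had a different effect with osimertinib than without it. In sign 29 members were higher and 12 lower, with a median of 0.28, and 0 were called by edgeR or DESeq2, as were 0% of all genes by edgeR. At an unadjusted p under 0.05 there was 1 member (2.44%), POLD2, at −0.48 with an adjusted p of 1. The share over all genes is not given for this count, so it is not read as a result. The median width of the 95% interval was 1.82 on the log2 scale over 35 members, so differences of moderate size between the 2 hormone effects were not detectable here.

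The lower replication RNA of H1975–OR was also present under the drug. Between osimertinib-treated H1975–OR and vehicle-treated H1975, 25 members (61.0%) were called lower and 0 higher, against 12% of all genes lower, with a median of −0.997. With both agents 26 (63.4%) were called lower and 0 higher, against 13.6%, with a median of −1.19. The H1975 libraries are the same in these comparisons as in the first. RRM2 stood at 62.4, 41.4 and 26.6 CPM with osimertinib and at 56.6, 25.2 and 26.0 CPM with both agents, or 15.2% and 12.6% of the H1975 level. CDC45 stood at 21.1, 9.62 and 10.0 CPM with osimertinib and at 14.04, 8.46 and 9.67 CPM with both agents. MCM5 changed by −1.93 and −2.28, MCM10 by −2.08 and −2.42, and UHRF1 by −1.88 and −2.30.

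LIG1 passed the test in these comparisons, at −2.66 with osimertinib and −2.43 with both agents (adjusted p = 0.0182 and 0.0235 by edgeR), although it had not between the vehicle groups. It lost that call without Sample 4c (adjusted p = 0.0594), and for both agents without Sample 1a, 1c, 5a or 5c in turn, with adjusted p values of up to 0.0601. Of the 39 tested genes of the second list, 17 were lower and 1 higher with osimertinib, and 21 lower and 2 higher with both agents. In either direction these were 46.2% and 59%. Over all genes 12% and 13.6% were called lower. That background counts the lower direction alone, and no share called higher is given, so the percentages are not set against each other. Those called higher were TICRR in both comparisons, against H1975 libraries at 0, and RRM2B with both agents, by 0.48 on the log2 scale.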

How the data were processed

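Per the labels, RNA from 15 cultures was made into ribosomal RNA-depleted stranded libraries. The submitters' processing notes name CASAVA 1.8.2, STAR 2.5.2b, kallisto 0.43.0 and GRCh38; the authors' methods name kallisto with tximport. The deposited values are estimated counts per gene symbol, unscaled, and were rounded to whole numbers here. Values that kallisto splits between similar transcripts can change a gene's count.

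The members and lists were chosen with earlier results of these data known. Tests used edgeR 4.0.16 (TMM, filterByExpr with a minimum count of 10, quasi-likelihood F test, Benjamini-Hochberg adjustment over all genes) on R 4.3.3, without Sample 3a: 8 libraries and 12513 genes for H1975–OR against H1975 and for 1,25(OH)2D3 against vehicle, 11 H1975–OR libraries and 12503 genes for osimertinib, and 14 libraries and 12819 genes for treated H1975–OR against H1975. The replicates are passages of 1 line, so p-values measure only the spread between these samples. Alternatives were RLE factors, DESeq2 1.42.0, no filter, a minimum of 10 counts per library, keeping Sample 3a, the replicate block, other library sets and leaving out each library. The script was tested on simulated data.

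Named genes were, per comparison, the 6 largest called changes among members with a mean of at least 20 CPM and no overlap, or, with fewer than 4 such, the 4 with the smallest unadjusted p, and per role the member with the highest mean CPM (a rule of choice, not a comparison of levels) and those against the role's direction. Other members are given by role, and the 6 split genes were chosen after their values were seen. Same-letter H1975–OR libraries deviated together (correlations of 0.124 to 0.31 for vehicle and osimertinib, 0.258 to 0.464 for osimertinib and both agents, 0.118 to 0.341 for vehicle and both agents). Pairs with the 1,25(OH)2D3 libraries gave 0.0698 and 0.108 against vehicle, and down to −0.000415 over all same-letter H1975–OR pairs. Without Sample 3a the deviations of Samples 3b and 3c are from a mean of 2 libraries and mirror each other. These values are therefore not comparable with those of the other groups. Same-letter libraries of H1975 and vehicle-treated H1975–OR did not deviate together (−0.03 to 0.02). No 2 libraries agreed within sampling noise. Gene positions are from GENCODE 44.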

Additional observations from a re-analysis of the deposited data

Results flagged for a closer look

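Sample 3a entered no main test, and 2 members stood there more than 1.5-fold above the highest vehicle-treated H1975–OR library. POLE stood at 61.4 CPM in Sample 3a, against 32.3, 22.1 and 16.4 CPM in Samples 2a to 2c and 27.3 and 30.1 CPM in Samples 3b and 3c. TYMS stood at 10.2 CPM in Sample 3a, against 5.32, 0.62 and 2.51 CPM with vehicle and 0 and 1.67 CPM in Samples 3b and 3c. Over all 41 members Sample 3a lay below every vehicle library for 13 and above every one for 9. MKI67, a proliferation marker, stood at 251.2 CPM in Sample 3a and at 42.4 to 88.4 CPM with vehicle, whereas CDK1 stood at 31.8 CPM, within the vehicle range of 29.0 to 65.7 CPM.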

How the results depend on the processing

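The number of members called lower between H1975–OR and H1975 stayed within 1.5 times its value under every alternative run: 23 to 30 with vehicle, 21 to 27 with osimertinib and 23 to 29 with both agents. With the replicate block the counts were 26, 27 and 28, and the paired fit changed no other count of members. Without the 6 members that split within a group, an alternative chosen after seeing the data, the counts were 27, 25 and 26. Between H1975–OR groups the count of members called was 0 under every alternative but 1: DESeq2 called 1 for both agents against vehicle, POLD2. Between vehicle groups the sign of MCM2 turned with RLE size factors (−0.002146), with DESeq2 (−0.002376) and without Sample 1a or 2b, and its log2 fold change ranged from −1.624 to 0.4921 over the fits that left out 1 library. That of RPA1 turned with RLE size factors (−0.0006506), with DESeq2 (−0.0005427) and without Sample 1b or 2c, with a range of −0.05263 to 0.04917. That of RFC1 turned without Sample 1c, with a range of −0.05556 to 0.1233. None of these 3 was called. RRM1 passed without Sample 2a alone (adjusted p = 0.0241), which leaves the H1975–OR libraries at 0. The cause of the other shifts was not tested. With 3 libraries a group (2 for 1,25(OH)2D3), median intervals between H1975–OR groups were 1.12 to 1.21 wide on the log2 scale, so small changes of single members were not detectable.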

Other observations

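Within an H1975–OR group the letters ranked alike for many members. Letter a held the highest value for 29 of 41 members with vehicle, 28 with osimertinib and 25 with both agents. With 1,25(OH)2D3 it did so for 23, where letter a is Sample 3a. No share over all genes is given, so the ranking is not read as particular to the members. In H1975 letter a held it for 18, letter b for 10 and letter c for 13. TOP2A, which disentangles replicated DNA, was also highest in letter a with vehicle, at 400.2, 200.4 and 171.2 CPM in Samples 2a to 2c, and NKX2-1, a lung lineage factor, was lowest there, at 31.9, 62.3 and 74.8 CPM. No label says what libraries of the same letter share.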
